A study of Mus musculus with 8 samples.

Results

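Steady-state maturation of XCR1+ dendritic cells was followed by comparing 2 arrays of spleen cells that carried CCR7 and an Il12b reporter with 3 arrays of immature spleen cells that carried neither. These are 5 of the 8 arrays of the study. The remaining 3 arrays, of cells with CCR7 but without the reporter (CCR7+Il12b- here), share the immature controls, entered the model only to share its estimate of the spread, and are given as values beside a few genes. All cells came from the spleen of untreated mice with an enhanced yellow fluorescent protein reporter in the Il12b gene, whose age the labels do not state. They were sorted as negative for lineage markers, negative or low for BST2, high for CD11c and positive for CD8α. The immature fraction was CCR7- and EYFP- (n = 3), and the matured fraction was CCR7+ and EYFP+, called CCR7+Il12b+ here (n = 2). Nothing states that the samples of a group came from separate mice, and p-values here reflect the spread among samples that may be technical repeats. The series title gives the purpose, which was to follow homeostatic maturation in a fraction of these cells. The comparison covered 19938 genes, each by its array row with the highest mean.

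Among conventional dendritic cells, those with the chemokine receptor XCR1 specialise in taking up dying cells and cross-presenting their antigens to CD8 T cells. In the absence of infection some of them mature, gain the chemokine receptor CCR7 and move into the T cell areas of lymphoid organs, where they are known to help keep T cells tolerant. Maturation is usually described by co-stimulatory molecules, cytokines and chemokines. A dendritic cell that matures is also known to stop sampling its surroundings, to change shape and to leave the cell cycle, and those functions lie outside the usual immune gene lists.

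Values are log2 expression values, and a background mark of 4.98 was taken from olfactory and vomeronasal receptor genes, which these cells are not known to use. Correlations across genes were 0.992 to 0.996 among immature arrays, 0.987 between both CCR7+Il12b+ arrays and 0.911 to 0.920 between these groups. The sort fixed Ccr7 and Il12b, so both are a check and no finding. Ccr7 read 8.50, 8.86 and 8.56 in the immature samples and 12.77 and 12.46 in the CCR7+Il12b+ samples, and Il12b read 6.88, 7.09 and 7.11 in the immature samples and 12.35 and 12.22 in the CCR7+Il12b+ samples. Of the other genes of the sort, Itgax differed by -0.97 ± 0.13 (SE). Cd8a, at -0.31, lost its call without any single array other than CCR7+Il12b- replicate 3, and Bst2, at -0.46, when either CCR7+Il12b+ replicate or immature replicate 2 or 3 was left out. Defining markers of XCR1+ dendritic cells lay above the mark in both fractions. Naaa, an acid amidase, read 11.90, 11.69 and 11.68 in immature and 6.95 and 6.93 in CCR7+Il12b+ samples, and Tlr3, a sensor of double-stranded RNA, read 10.16, 10.14 and 10.08 against 5.20 and 5.42. These markers were 28.2-fold and 28.2-fold lower after maturation, without overlap, and Xcr1 itself read 10.89, 10.98 and 10.82 against 8.12 and 7.64. The lineage receptor Flt3 differed by 0.28 ± 0.13 (adjusted p = 0.113) and the dendritic factor Zbtb46 by 0.40 ± 0.15 (adjusted p = 0.0744), and Batf3 rose by 0.89 ± 0.12. Clec9a, Irf8, Cadm1 and Wdfy4, further markers of these cells, were lower under every alternative processing. Their log2 differences there ran from -2.18 to -1.72, -1.46 to -0.99, -1.56 to -1.28 and -2.22 to -1.94. RNA input was 3 or 20 ng and the input of each sample is not given, so its part in any difference was not tested.

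Steady-state maturation went with differences in many functions. At an adjusted p under 0.05 in limma, 2816 genes were higher (14.1% of those tested) and 3567 were lower (17.9%) in CCR7+Il12b+ than in immature cells, together 32.0%. After median centring of the arrays the calls split 30.1% higher against 44.1% as deposited, where centring moved the median difference of all genes from 0.09 to -0.05. The values of the groups did not overlap for 11387 genes, or 57.1%, so lack of overlap in a named gene does not stand out. Changes of at least 2-fold were called for 899 rises and 1636 falls, so falls of this size outnumbered rises. Among the steepest changes the order turned. At least 8-fold were 96 rises and 74 falls, and at least 16-fold were 35 rises and 10 falls. All counts of genes by fold use the measured difference, also where 1 group lay below the mark. Some of these genes reach a smaller fold when set against the mark, and the order by such bounds was not counted. As a group, 297 genes lay below the mark on every immature array and above it on both CCR7+Il12b+ arrays, of which 185 were called higher, and 225 did the reverse, of which 210 were called lower. For 4492 of the 12807 genes above the mark in either group, or 35.1%, the 95% interval of the difference lay within 1.5-fold.

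**Figure D1:**
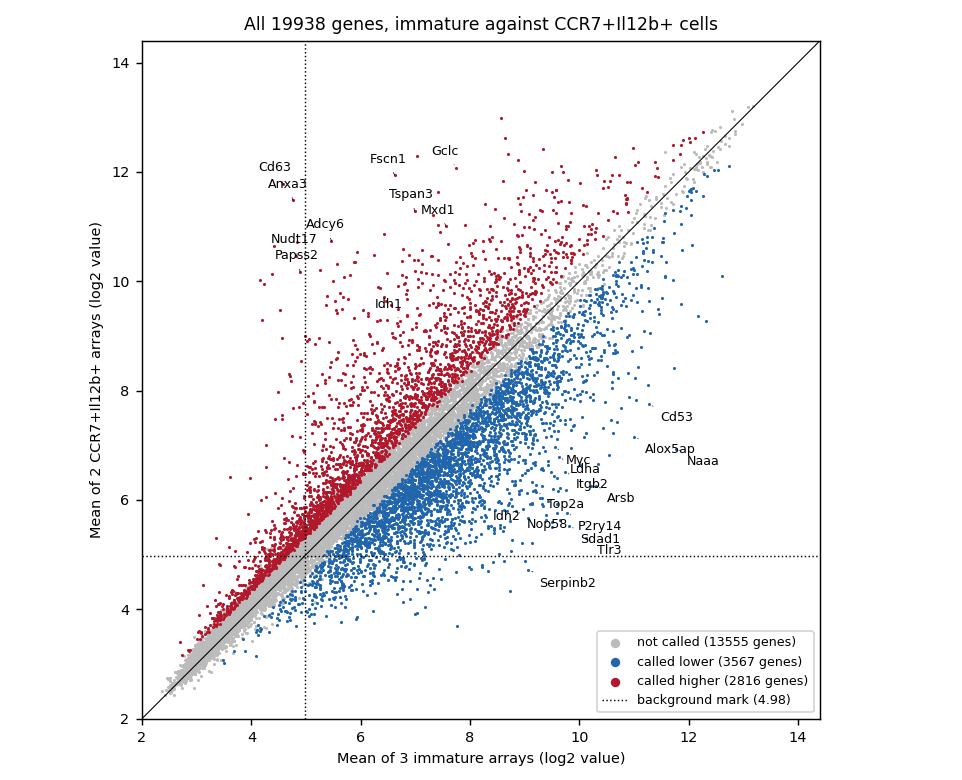
Each point is 1 of 19938 genes, with the mean log2 value of the 3 immature arrays on the horizontal axis and of the 2 CCR7+Il12b+ arrays on the vertical axis. Red points were called higher (2816) and blue points lower (3567), dotted lines stand at the background mark of 4.98, and many of the steepest rises start near that mark while most steep falls end above it.

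Most of these steep changes lay outside the immune lists, which are short. The 8 immune lists used here covered 25 of the 278 genes that rose at least 4-fold (8.99%) and 29 of the 332 that fell at least 4-fold (8.73%), against 170 of all 19938 genes tested (0.853%). Lists of other functions held a further 78 rises and 102 falls, and 171 rises and 197 falls were on no list, where 1897 and 17790 of all genes stood. The lists were drawn up with earlier results of these data known, so these shares are a description. The plot of shares by list sets each function beside the shares over all genes. Of the measured list genes, 1909 of 2148 lay above the mark in either group. Among all 12807 genes above it, 19.5% were called higher and 27.4% lower, so list shares near these do not stand out.

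**Figure D2:**
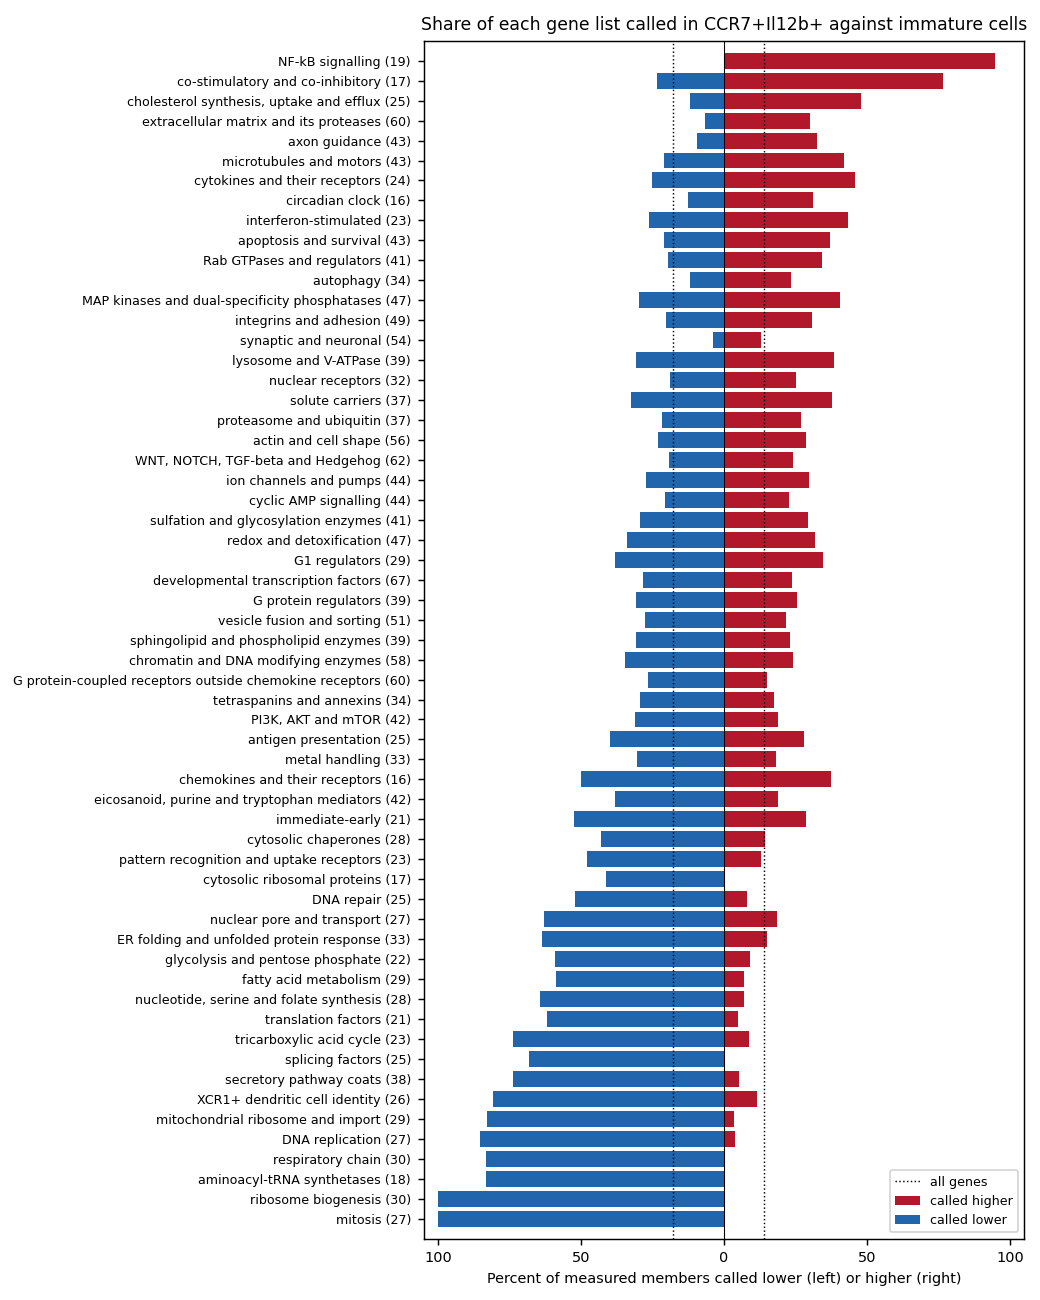
Bars give the percent of measured members of each list shown that were called lower (blue, left) or higher (red, right), with the number of measured members in brackets and dotted lines at the shares of all genes, 17.9% lower and 14.1% higher. Among genes above the background mark in either group, where most list members lay, the shares were 27.4% lower and 19.5% higher. Mitosis and ribosome biogenesis stand at 100% lower, and NF-kB signalling at 94.7% higher.

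Outside the immune lists, the steepest rises included genes of membrane traffic, cell shape, sulfur and glutathione metabolism and cyclic AMP. Cd63, a tetraspanin of late endosomes and lysosomes, read 4.18, 4.78 and 4.79 in the immature samples and 11.84 and 11.71 in the CCR7+Il12b+ samples. Anxa3, an annexin that binds phospholipid in the presence of calcium, read 4.58, 4.72 and 4.98 in immature and 11.71 and 11.25 in CCR7+Il12b+ samples. In both, every immature value was at or below the mark and every matured value was far above it, so each fold is a bound, at least 111-fold for Cd63 and at least 90.8-fold for Anxa3 (adjusted p = 2.7e-09 and 2.92e-09). Nudt17, a member of the Nudix hydrolases, rose at least 44.7-fold, from 4.78, 4.80 and 4.88 to 10.77 and 10.15. Papss2, which makes the sulfate donor PAPS, went from 4.96, 4.64 and 5.07 to 10.07 and 10.28, a rise of at least 36.0-fold. These 4 genes were near the mark in all immature samples.

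Other steep rises started from a readable level. Fscn1, the actin-bundling protein of dendrites, read 6.24, 6.63 and 6.99 in the immature samples and 11.90 and 11.98 in the CCR7+Il12b+ samples, a rise of 40.0-fold (log2 difference 5.32 ± 0.20, adjusted p = 2.14e-08). Adcy6, an adenylyl cyclase, went from 5.13, 6.01 and 5.26 to 10.73 and 10.75, or 38.7-fold. Gclc, the catalytic subunit of the enzyme that starts glutathione synthesis, was already well above the mark and rose 20.1-fold, from 7.80, 7.48 and 7.95 to 12.17 and 11.98. Only genes whose groups did not overlap could be named here, so that trait of the 3 genes was fixed by the rule. The immature samples of Adcy6 were the least alike of these. The ETS factor Ehf rose by 4.75 ± 0.19 and the aspartic protease Asprv1, known from skin, by 4.39 ± 0.20. The adaptor Stap2 rose by 4.95 ± 0.16 and the vesicle transport protein Mreg by 4.47 ± 0.18. H2-M2, a class Ib histocompatibility gene on none of the immune lists used, rose at least 52.9-fold to 10.87 and 10.54 from values around the mark. Heatr9 rose at least 22.7-fold and Zmynd15 22.8-fold.

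Transporters and guidance molecules were among the genes that started below the mark. Slco5a1, of the organic anion transporter family, read 4.21, 4.18 and 4.10 in the immature samples and 10.16 and 9.90 in the CCR7+Il12b+ samples, at least 33.1-fold higher. Sema6d, a transmembrane semaphorin, rose at least 31.5-fold. Slc4a8, a sodium-driven bicarbonate exchanger, started just above the mark and rose 20.3-fold. The ataxin gene Atxn1 rose at least 19.8-fold, the zinc finger gene Zfp872 at least 35.8-fold, and the suppressor of cytokine signalling Socs2 at least 50.8-fold. Socs2 and Atxn1 each have a second array row, whose value was also higher. In the CCR7+Il12b- samples, which share the immature controls, the mean was 9.08 for Slco5a1, 8.50 for Sema6d and 11.06 for Cd63, between the means of the other groups.

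**Figure D3:**
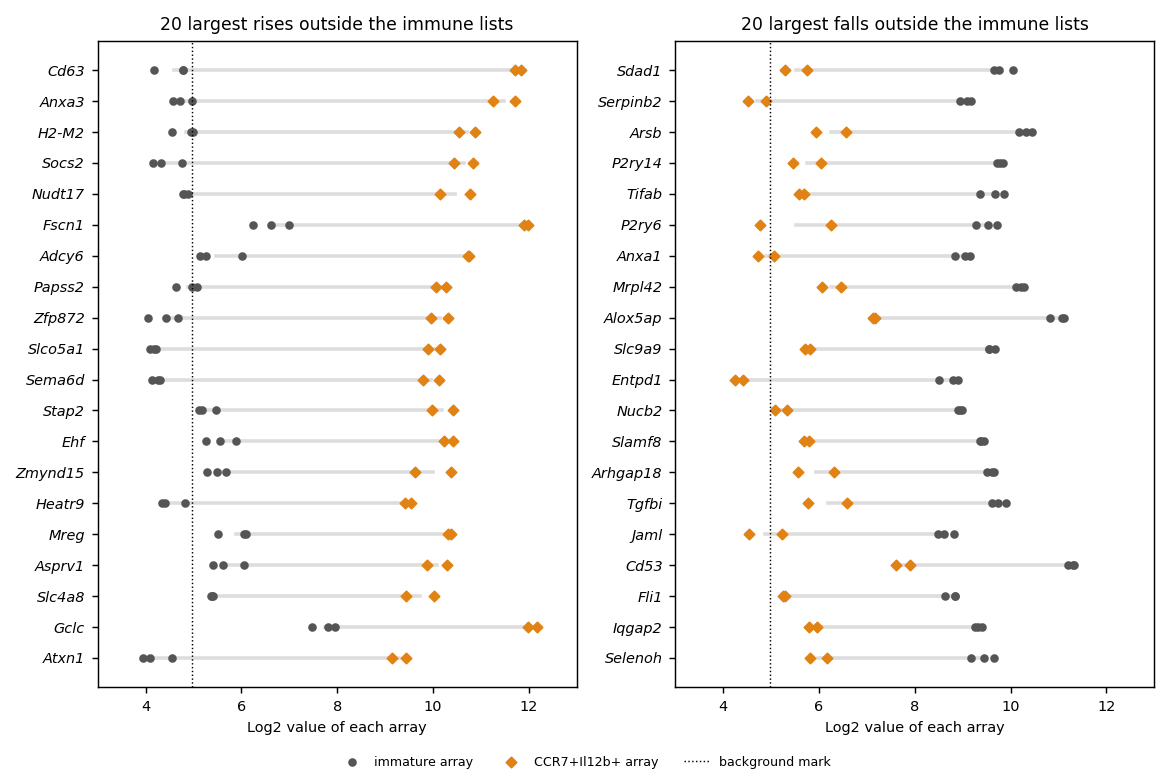
Log2 values of the 20 largest rises (left) and 20 largest falls (right) among genes on no immune or marker list, with 3 immature arrays as grey circles, 2 CCR7+Il12b+ arrays as orange diamonds and the background mark as a dotted line. The rows were picked for large changes without overlap, so the groups are apart in each by choice. P2ry6 has the widest spread between the CCR7+Il12b+ arrays, 4.76 and 6.26.

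The steepest falls outside the immune lists included lysosomal, nucleotide-sensing, ribosomal and leukotriene genes. Sdad1, a nucleolar protein of ribosome assembly, read 10.05, 9.65 and 9.75 in the immature samples and 5.75 and 5.28 in the CCR7+Il12b+ samples, a fall of 19.7-fold (log2 difference -4.30 ± 0.23, adjusted p = 2.21e-07). Arsb, the lysosomal arylsulfatase B, fell 16.6-fold, from 10.17, 10.44 and 10.31 to 5.94 and 6.56. Alox5ap, the protein that hands arachidonic acid to 5-lipoxygenase, fell 14.5-fold, from 10.83, 11.11 and 11.07 to 7.17 and 7.12. All 3 stayed above the mark in the matured cells, at values far below every immature sample. Entpd1, the ectoenzyme CD39 that degrades extracellular ATP, fell below the mark, from 8.51, 8.79 and 8.90 to 4.42 and 4.24, at least 13.5-fold lower. The mitochondrial ribosomal gene Mrpl42 fell 15.5-fold, the endosomal sodium-proton exchanger Slc9a9 14.2-fold, the ETS factor Fli1 11.4-fold and the scaffold Iqgap2 10.9-fold. Other steep falls were those of Tifab, a TRAF-interacting protein, 16.1-fold, the calcium-binding Nucb2 13.4-fold and the surface receptor Slamf8 12.6-fold. The matrix protein Tgfbi, induced by TGF-beta, fell 11.9-fold, from 9.60, 9.74 and 9.91 to 5.77 and 6.58. The junctional adhesion protein Jaml fell at least 11.5-fold and the selenoprotein Selenoh 10.9-fold.

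Genes of the machinery that builds ribosomes fell as a whole. In the ribosome biogenesis list 0 of 30 measured members rose and 30 fell, with a median log2 difference of -1.48 against 0.09 over all genes. Nifk, which binds the proliferation antigen Ki-67 in the nucleolus, fell at least 9.33-fold, and Rrs1, a ribosome assembly regulator, at least 4.06-fold. Nop58, a core protein of the particles that methylate ribosomal RNA, fell 8.26-fold, from 8.91, 8.70 and 8.90 to 5.88 and 5.70. Its groups did not overlap. Fbl, the methyltransferase of the same particles, differed by -2.45 ± 0.18, and by -2.72 to -1.61 over the alternatives run. Polr1a, the large subunit of RNA polymerase I, differed by -2.50 ± 0.16, and Rrn3, the factor that brings this polymerase to its promoter, by -1.41 ± 0.16. These 3 were named for their roles, after their values were seen.

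Of 11 genes of the MYC, MAX and MXD network 2 rose and 3 fell. As counts these do not stand out from genes above the mark, of which 19.5% rose and 27.4% fell. Myc, the factor known to drive ribosome genes, read 9.61, 9.41 and 9.63 in the immature samples and 7.32 and 6.61 in the CCR7+Il12b+ samples, a fall of 6.01-fold (log2 difference -2.59 ± 0.25, adjusted p = 1.34e-05). Its relative Mycl fell 4.93-fold and their partner Max 2.05-fold. Mxd1, which competes with MYC for MAX, rose 10.9-fold, from 7.47, 7.74 and 7.47 to 11.13 and 10.88. No sample of one group reached the other in Myc or Mxd1. The second rise, of Mxi1 by 0.51 ± 0.15, was lost without CCR7+Il12b+ replicate 1 or immature replicate 1 or 3 and after median centring. Mxd3, Mxd4, Mnt and Mga differed by -0.14, -0.06, -0.11 and 0.06, none of them called. Mycl, Max, Mxi1 and the last 4 were named after their values were seen.

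Promoters of ribosome genes are known to carry E-boxes, CACGTG, the sequence that MYC and MAX bind. Among windows from 250 bases before to 50 bases after the start site (RefSeq, build GRCm38.p6), searched on both strands, 9 of the 26 ribosome biogenesis genes with a window held CACGTG (34.6%), against 9.50% of 15614 genes tested. A match is a description of letters, not of binding. The 150 bases before the start site are printed for the nucleolar methyltransferase gene Nop2 (chr6:125131733-125131882, plus strand) and for Rrn3 (chr16:13780549-13780698, plus strand), 2 members that fell and hold the motif in this stretch, 5′ to 3′ on the gene's strand with the E-box in capitals.
Nop2: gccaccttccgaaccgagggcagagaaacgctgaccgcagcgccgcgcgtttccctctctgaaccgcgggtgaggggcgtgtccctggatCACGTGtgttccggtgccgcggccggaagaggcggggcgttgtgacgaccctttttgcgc
Rrn3: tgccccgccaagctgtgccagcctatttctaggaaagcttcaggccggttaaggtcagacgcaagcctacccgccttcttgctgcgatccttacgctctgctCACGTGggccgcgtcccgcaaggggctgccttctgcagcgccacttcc
The log2 difference was -0.95 ± 0.15 for Nop2.

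Genes for other steps from nucleus to protein fell with less depth. Of the aminoacyl-tRNA synthetases, which charge tRNAs with amino acids, 15 of 18 fell and 0 rose (median -1.02), with the phenylalanine enzyme subunit Farsb furthest at -2.77 ± 0.20. Among translation factors 13 of 21 fell, led by Eef1e1 at -2.30 ± 0.22, and 1 rose, the initiation inhibitor Pdcd4 at 0.88 ± 0.17. Splicing factors had 17 falls and 0 rises in 25, and the U2 particle gene Snrpa1 fell 4.49-fold. Genes of the nuclear pore and nuclear transport split into 17 falls and 5 rises of 27. There the importin Kpna3 rose 4.43-fold while Ranbp1, a partner of the transport GTPase Ran, fell 3.41-fold. Ribosomal proteins of the cytosol moved little, with 7 of 17 lower and a median of -0.29. That count was 3 without CCR7+Il12b+ replicate 1, 4 after cyclic loess and 11 after median centring.

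Cell division genes fell without exception in the mitosis list, where 27 of 27 measured members fell (median -1.87), also under every alternative run. Ccna2, the cyclin of S phase and mitotic entry, read 8.18, 8.57 and 8.89 in the immature samples and 5.39 and 5.57 in the CCR7+Il12b+ samples, 8.37-fold lower. Kif23, a kinesin needed to separate daughter cells, fell 8.33-fold, and the checkpoint kinase Bub1 at least 5.12-fold. Mki67, which encodes the Ki-67 antigen, fell 3.09-fold, and the mitotic kinase gene Cdk1 2.14-fold. Top2a, which untangles DNA, fell 8.36-fold in the row used, while its second row differed by 0.46. In bulk samples fewer dividing cells and less RNA in each dividing cell cannot be told apart.

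DNA replication genes were also lower. Of 27 members 23 fell and 1 rose (median -1.34). Mcm6, a subunit of the replicative helicase, fell 5.68-fold, from 8.27, 8.35 and 8.38 to 5.77 and 5.89, the primase Prim1 4.38-fold and the ribonucleotide reductase subunits Rrm2 and Rrm1 4.27-fold and 4.21-fold. No matured sample reached an immature one in Mcm6. The single rise was thymidine kinase, Tk1, at 9.17, 9.55 and 9.50 in immature and 10.35 and 10.78 in CCR7+Il12b+ samples, 2.23-fold higher. In DNA repair 13 of 25 members fell, Atm, the kinase that senses double-strand breaks, at least 2.43-fold and Parp1 2.50-fold. The 2 members that rose included Brca1 at 0.82 ± 0.17, and 1 rise remained without CCR7+Il12b+ replicate 1 or after median centring.

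Promoters of mitotic genes are known for the CHR element, TTTGAA, and those of replication genes for E2F sites. TTTGAA was present on either strand in 17 of 23 mitosis genes with a window (73.9%) against 17.3% of genes tested. TTTGGCGC was present in 5 of 23 replication genes (21.7%) against 0.833%, and TTCCCGCC also in 5 of 23 (21.7%) against 3.53%. Neither E2F sequence occurred in the 23 mitosis windows, which says only that these letters are not there. Windows of 150 bases before the start are printed for 2 mitosis genes, Cdc20 (chr4:118437344-118437493, minus strand), an activator of the anaphase ubiquitin ligase, and Cdk1 (chr10:69352913-69353062, minus strand), with TTTGAA in capitals, and for Mcm6 (chr1:128359706-128359855, minus strand), with TTTGGCGC in capitals.
Cdc20: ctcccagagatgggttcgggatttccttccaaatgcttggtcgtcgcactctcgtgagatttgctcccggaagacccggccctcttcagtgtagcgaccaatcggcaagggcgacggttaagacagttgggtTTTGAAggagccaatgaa
Cdk1: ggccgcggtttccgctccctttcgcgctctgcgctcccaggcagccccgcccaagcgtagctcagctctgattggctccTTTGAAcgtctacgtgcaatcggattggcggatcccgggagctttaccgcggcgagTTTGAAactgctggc
Mcm6: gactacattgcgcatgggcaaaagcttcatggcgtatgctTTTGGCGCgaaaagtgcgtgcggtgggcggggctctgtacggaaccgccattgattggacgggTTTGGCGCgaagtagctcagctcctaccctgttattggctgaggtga
Cdk1 and Mcm6 each hold 2 matches in the stretch shown, and Cdc20, which holds 1, fell 1.65-fold (adjusted p = 0.00447). Mcm3 holds both E2F sequences, so it is counted under each.

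Regulators of the G1 phase did not move as a block, with 10 rises and 11 falls in 29. The rises numbered 6 without CCR7+Il12b+ replicate 1 and after median centring. Cdkn2b, an inhibitor of CDK4 and CDK6, rose 4.91-fold, from 5.11, 5.03 and 5.32 to 7.59 and 7.31, and Cdk4 itself fell 3.09-fold. The groups did not overlap in Cdkn2b. Cyclin D2, Ccnd2, rose 3.11-fold, and Mdm2, the ubiquitin ligase of p53, 2.88-fold.

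**Figure D4:**
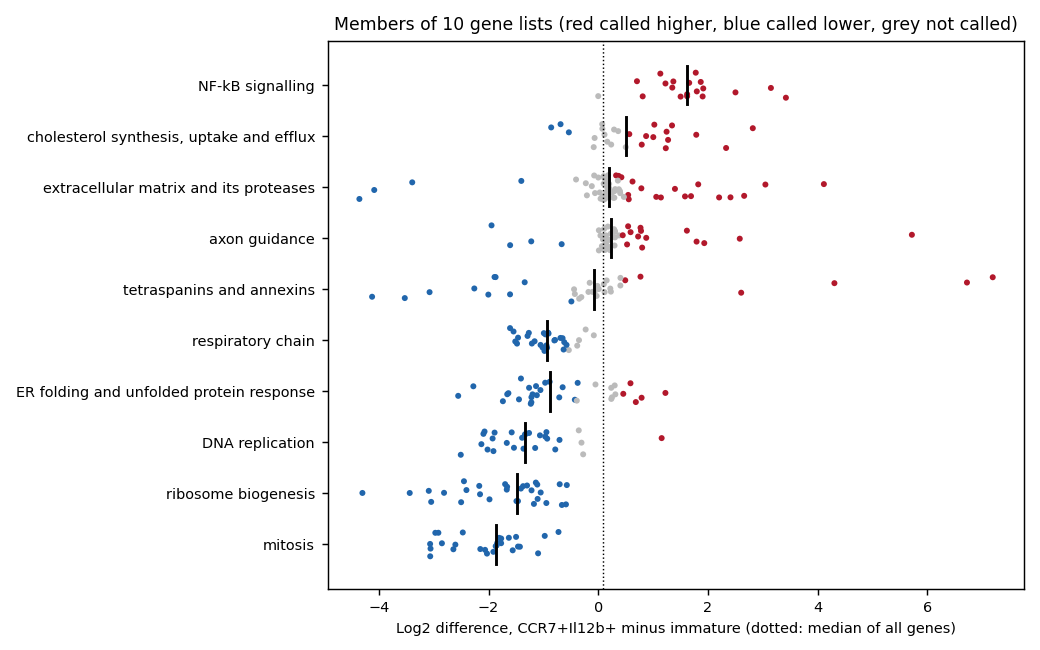
Each point is a measured member of the named list, placed by its log2 difference between CCR7+Il12b+ and immature cells, red where called higher, blue where called lower and grey where not called, with a black bar at the list's median and a dotted line at the median of all genes, 0.09. Ribosome biogenesis and mitosis lie wholly to the left, NF-kB signalling to the right, and tetraspanins and annexins spread from -4.12 to 7.19.

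Mitochondrial genes fell across respiration, protein synthesis and import. In the respiratory chain 25 of 30 members fell and 0 rose (median -0.94). The largest fall was that of Uqcrb, of complex III, 3.05-fold (log2 difference -1.61 ± 0.17), followed by Ndufa9 of complex I, 2.92-fold. Of the mitochondrial ribosome and import genes 24 of 29 fell, Mrps28 6.61-fold and the import chaperone Timm9 3.91-fold. The only rise was the small-subunit gene Mrps7, by 0.79 ± 0.16.

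Isocitrate dehydrogenases split by compartment. Idh1, the cytosolic NADP enzyme, read 6.58, 6.65 and 6.94 in the immature samples and 9.37 and 9.18 in the CCR7+Il12b+ samples, 5.89-fold higher (adjusted p = 2.44e-07). Idh2, its mitochondrial counterpart, read 8.06, 8.17 and 8.41 against 5.69 and 6.17, 4.87-fold lower. The order of the groups was opposite in these genes and no samples overlapped. The NAD enzyme subunits Idh3a, Idh3b and Idh3g fell at least 1.79-fold, 1.88-fold and 2.52-fold. In the whole tricarboxylic acid cycle list 17 of 23 members fell, with fumarase, Fh1, at -2.51 ± 0.22, and 2 rose. The second rise, of Pcx, was lost without CCR7+Il12b+ replicate 2 or immature replicate 2 or 3 and under all 3 rescalings.

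Genes of sugar metabolism fell in most cases, and those of a sugar carrier and a regulator rose. Ldha, lactate dehydrogenase, read 9.43, 9.67 and 9.77 in the immature samples and 6.69 and 6.87 in the CCR7+Il12b+ samples, 7.19-fold lower. Taldo1, of the pentose phosphate path, fell 5.55-fold and hexokinase 2, Hk2, 2.90-fold. Pfkfb3, which makes the activator of phosphofructokinase, rose 9.42-fold (log2 difference 3.23 ± 0.15). Slc2a6, a sugar carrier of inner membranes, rose 10.7-fold, and neither gene overlapped between groups. In all, 13 of 22 members fell and these 2 rose. Of the genes for nucleotide, serine and folate synthesis 18 of 28 fell, among them Prps2, which makes the ribose donor of nucleotides, 3.78-fold and the folate enzyme Mthfd1 at least 2.28-fold, and 2 rose, the cytosolic serine hydroxymethyltransferase Shmt1 by 0.97 ± 0.13 and Mthfd2 by 0.63 ± 0.12.

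Cholesterol genes rose more often than they fell. In that list 12 of 25 members rose and 3 fell (median 0.50). Idi1, which supplies isoprenoid units, read 6.35, 7.28 and 6.92 in the immature samples and 9.74 and 9.60 in the CCR7+Il12b+ samples, 7.05-fold higher. Hmgcs1, at the entry of the pathway, rose 5.03-fold, squalene synthase, Fdft1, 2.54-fold, and the sterol exporter Abcg1 3.45-fold. The 3 falls, of Ebp, Dhcr7 and Cyp27a1, became 1 without immature replicate 2 or 3 and 0 without CCR7+Il12b+ replicate 2.

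Fatty acid enzymes fell in 17 of 29 cases, 11 without CCR7+Il12b+ replicate 2, and rose in 2, 1 without CCR7+Il12b+ replicate 1 or after median centring. Etfb, which passes electrons from fatty acid oxidation to the chain, fell 4.16-fold, and Etfdh, the next protein of that path, rose 2.81-fold. The desaturase Fads1 fell 3.51-fold and the elongase Elovl5 3.09-fold. The lipid signalling enzymes were mixed, with 9 rises (23.1%) and 12 falls (30.8%) of 39. Genes above the mark gave 19.5% and 27.4%. Choline kinase, Chka, rose 9.11-fold and ceramide synthase 6, Cers6, 4.96-fold, while phospholipase C beta 2, Plcb2, fell 9.17-fold and the phospholipase D family member Pld4 3.93-fold.

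Genes of protein folding and export from the endoplasmic reticulum fell in most cases. Of 33 members of the folding list 21 fell and 5 rose (median -0.89). Pdia6, a disulfide isomerase, read 9.44, 9.90 and 9.88 in the immature samples and 7.31 and 7.61 in the CCR7+Il12b+ samples, 4.85-fold lower, with the groups apart. Its relative Pdia4 fell 5.87-fold in the row used, and a second row gave -0.11. The chaperone Hyou1 fell 3.16-fold. Among the rises, Sel1l, of the pathway that removes misfolded proteins, was 2.34-fold higher and the stress factor Ddit3 1.73-fold. Of the coats and carriers of the secretory pathway 28 of 38 fell, the cargo receptor Lman1 4.48-fold and Tmed10 4.42-fold, with -1.12 on the log2 scale in a second row of Tmed10. That count was 18 without immature replicate 2 or 3 and 16 without CCR7+Il12b+ replicate 2. Rises there numbered 2, Arf4 at 0.69 ± 0.12 and Golgb1, and came to 1 without immature replicate 1 or 3, CCR7+Il12b- replicate 2 or CCR7+Il12b+ replicate 2 and after median centring.

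Cytosolic chaperones were lower for 12 and higher for 4 of 28, and the rises came to 2 without CCR7+Il12b+ replicate 1 or immature replicate 2 or 3 and to 7 after cyclic loess. The chaperonin subunit Cct7 fell 2.50-fold and the co-chaperone Dnajb6 rose 2.30-fold. Genes of the proteasome and ubiquitin split into 10 rises and 8 falls of 37. Rises came to 6 without immature replicate 1 or CCR7+Il12b+ replicate 1 and after median centring. Of the related ubiquitin ligases Cblb and Cbl, the former was 6.12-fold higher and the latter 2.70-fold lower. Marchf1, the ligase that removes MHC class II from the surface, fell 2.89-fold from 8.33, 7.98 and 8.27 to 6.35 and 6.97, and the mitochondrial ligase Marchf5 rose 2.30-fold.

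Lysosomal genes moved both ways. Of 39 measured, 15 rose and 12 fell. Besides Cd63, the membrane protein Lamp1 rose 4.42-fold, from 8.96, 9.16 and 9.12 to 11.22 and 11.23, the proton pump subunit Atp6v0a1 4.99-fold and the protease legumain, Lgmn, 3.73-fold. In the opposite direction, Cd68 read 10.52, 10.38 and 10.50 in the immature samples and 7.89 and 7.70 in the CCR7+Il12b+ samples, 6.39-fold lower. The mannosidase Man2b1 fell 5.93-fold, the thioesterase Ppt1 6.97-fold and the lipase Lipa 4.35-fold. Of 34 autophagy genes 8 rose and 4 fell. The cargo receptor Sqstm1 rose 3.99-fold and the brake Rubcn 3.52-fold.

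Rab GTPases and their regulators leaned upward, 14 against 8 of 41. The falls came to 5 without immature replicate 2 or 3 and to 3 without CCR7+Il12b+ replicate 2. Rabgap1l rose 5.56-fold, the endosomal Rab21 3.70-fold and Rab9, of the route from endosome to Golgi, 3.36-fold. Rab7b, of late endosomes, was the deep exception, at 9.52, 9.52 and 9.48 in the immature samples and 5.78 and 5.40 in the CCR7+Il12b+ samples, 15.1-fold lower. In vesicle fusion and sorting 11 rose (21.6%) and 14 fell (27.5%) of 51, with 7 rises after median centring. These shares lay near the 19.5% and 27.4% of genes above the mark. The syntaxin Stx11 rose 6.01-fold and the tethering subunit Vps39 3.99-fold, while the adaptor Ap1b1 fell 4.13-fold and the vesicle SNARE Vamp7 3.57-fold.

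Genes of cell shape moved both ways. Actin genes gave 16 rises and 13 falls of 56. Swap70, which links signalling to actin, rose 12.4-fold from 7.27, 7.46 and 7.50 to 11.21 and 10.85, and the formin Daam1 6.44-fold. Myo1f, a class I myosin of leukocytes, fell 7.47-fold, from 9.89, 9.85 and 9.82 to 7.07 and 6.83. The groups were apart in both directions. Was, the activator of branched actin known from Wiskott-Aldrich syndrome, fell 4.28-fold and coronin 1A, Coro1a, 3.28-fold.

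Of the microtubule genes 18 rose and 9 fell of 43. The kinesin Kif13b rose 8.39-fold and the tubulin Tuba1a 4.38-fold, and Septin6 fell 6.61-fold and the microtubule destabiliser Stmn1 5.55-fold.

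Integrin genes moved both ways. Itgb2, the beta chain shared by LFA-1 and CD11c, read 9.80, 9.65 and 9.77 in the immature samples and 6.61 and 6.40 in the CCR7+Il12b+ samples, 9.38-fold lower (adjusted p = 1.52e-07). Itgal, the LFA-1 alpha chain, fell 6.92-fold, Itgae, the CD103 chain, 11.6-fold and its partner Itgb7 4.73-fold. Itgb1 rose 2.06-fold, Itga4 1.52-fold and Itgb8, a chain known for activating TGF-beta, at least 1.35-fold. Of 15 integrin genes 5 rose and 6 fell, among the latter Itgax, which the sort used. The rise of Itga5 was lost without any 1 array other than CCR7+Il12b+ replicate 1. Itgb1, Itga4, Itgb7 and Itgb8 were named after their values were seen. Among adhesion molecules of other kinds, Vcam1 rose 8.98-fold, the junction protein F11r 7.16-fold, the connexin Gjb2 4.53-fold and claudin 1, Cldn1, 3.30-fold, and Pecam1 fell at least 4.60-fold.

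Tetraspanins and annexins held rises and falls within each family. Of 19 tetraspanin genes 3 rose and 5 fell, counts that do not stand out from the 19.5% and 27.4% of genes above the mark. Tspan3 read 6.90, 6.97 and 7.08 in the immature samples and 11.34 and 11.24 in the CCR7+Il12b+ samples, 19.8-fold higher. Cd53, a tetraspanin of leukocytes, read 11.19, 11.30 and 11.33 in immature and 7.61 and 7.89 in CCR7+Il12b+ samples, 11.5-fold lower. Cd37, its relative, fell 4.79-fold, and the third rise, of Cd151 by 0.49 ± 0.14, was lost without CCR7+Il12b+ replicate 1 or immature replicate 1 or 2 and under all 3 rescalings. Of 8 annexins, Anxa3, Anxa4 and Anxa2 rose and Anxa1, Anxa6 and Anxa11 fell. Anxa1, known for damping inflammation, fell at least 15.9-fold, from 8.83, 9.05 and 9.15 to 4.71 and 5.06. Anxa4 rose 6.09-fold. A second row of Anxa6 gave -0.18 against -3.07 in the row used, and the call of Anxa11 was lost without CCR7+Il12b+ replicate 2 or immature replicate 2 or 3.

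Serpins of clade B, most of them inhibitors of proteases inside cells, split into 5 rises and 3 falls of 10. Serpinb9, the inhibitor of granzyme B, read 7.82, 8.26 and 8.20 in the immature samples and 10.95 and 10.56 in the CCR7+Il12b+ samples, 6.32-fold higher. Serpinb2, an inhibitor of plasminogen activators, read 9.17, 8.95 and 9.08 against 4.52 and 4.90, at least 17.0-fold lower. Serpinb10 fell at least 6.93-fold and Serpinb8 10.5-fold. In the wider list of extracellular matrix and its proteases 18 rose and 4 fell of 60, and 3 of the 4 falls were these serpins. Loxl3, a lysyl oxidase that crosslinks matrix, rose 17.3-fold, from 5.59, 5.26 and 5.75 to 9.82 and 9.47. The membrane-bound metalloprotease Mmp25 rose 8.27-fold and Plat, the tissue plasminogen activator, 5.32-fold, while Plau, the urokinase, fell 2.64-fold.

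**Figure D5:**
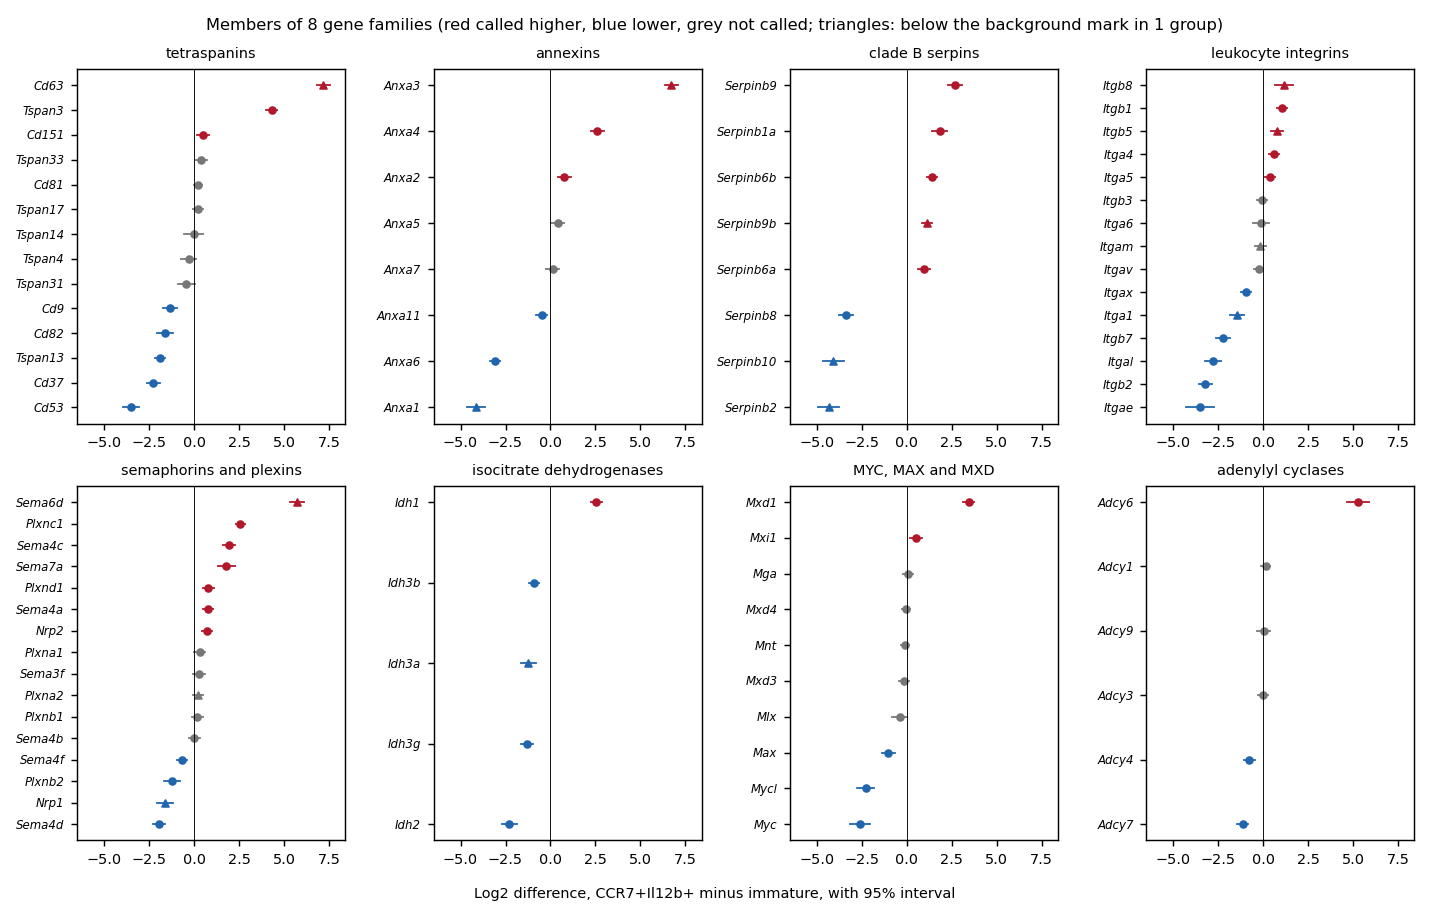
Log2 differences with 95% intervals for members of 8 gene families that lay above the background mark in at least 1 group, red where called higher, blue where called lower, grey where not called, and triangles where 1 group lay below the mark. Each panel holds members far apart, such as Cd63 at 7.19 and Cd53 at -3.53, or Idh1 at 2.56 and Idh2 at -2.28.

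Guidance molecules known from growing axons rose more often than they fell. Of 43 measured 14 rose and 4 fell (median 0.23). Sema4c rose 3.82-fold, Sema7a, a membrane-anchored semaphorin, 3.46-fold and the semaphorin receptor Plxnc1 5.98-fold. Sema4d fell 3.85-fold in the row used, with 0.04 in a second row, and Plxnb2, a receptor for it, 2.33-fold. Nrp1, a co-receptor of semaphorins, fell at least 2.38-fold. Of the synaptic and neuronal genes 45 of 54 were not called. The 7 that rose included Synpo2, an actin-binding protein, at 1.57 ± 0.18.

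Cyclic AMP is made by adenylyl cyclases and read by protein kinase A. Of 9 adenylyl cyclases Adcy6 rose far above the others, Adcy7 fell 2.21-fold and Adcy4 1.72-fold, and Adcy2 rose with both groups below the mark. Prkar2b, a regulatory subunit of protein kinase A, fell at least 4.71-fold and Prkar2a 3.17-fold. Ptger4, a prostaglandin E2 receptor that raises cyclic AMP, rose 5.66-fold, from 7.82, 8.09 and 8.15 to 10.63 and 10.42, with no overlap.

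G protein-coupled receptors outside the chemokine family numbered 9 rises and 16 falls of 60, with 5 rises without CCR7+Il12b+ replicate 2. As shares, 15.0% rose and 26.7% fell, against 19.5% and 27.4% of genes above the mark. S1pr1, the receptor that guides cells out of lymphoid tissue, rose 4.33-fold and the lysosomal receptor-like protein Gpr137b 5.47-fold. Of 8 P2Y receptors for extracellular nucleotides 2 fell. P2ry14, the UDP-glucose receptor, read 9.78, 9.83 and 9.70 in the immature samples and 6.04 and 5.46 in the CCR7+Il12b+ samples, 16.2-fold lower. P2ry6, the UDP receptor, fell 15.9-fold. The remaining P2Y genes measured were not called. Gpr34, a lysophosphatidylserine receptor, fell at least 5.65-fold and Gpr171 8.66-fold. Downstream of such receptors, the G protein subunit Gnb4 rose 9.70-fold and the signal regulator Rgs1 3.08-fold, while Rgs18 fell at least 4.56-fold and beta-arrestin 1, Arrb1, 4.32-fold.

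Kinase pathways held changes in activators and in inhibitors. Of the MAP kinase list 19 rose and 14 fell of 47. Spred1, an inhibitor of RAS signalling, rose 10.9-fold from 5.75, 5.85 and 6.05 to 9.35 and 9.30, and Rasa2, which turns RAS off, 9.11-fold. The phosphatase Dusp5 rose 4.81-fold and Dusp6, specific for ERK like Dusp5, fell 4.93-fold. Mapk14, the p38 alpha kinase, fell 6.74-fold and Map2k6, which activates it, at least 9.56-fold. In the PI3K and mTOR list 8 rose (19.0%) and 13 fell (31.0%) of 42, near the 19.5% and 27.4% of genes above the mark. Rragd, a GTPase that brings mTORC1 to the lysosome, rose at least 6.51-fold and the regulatory subunit Pik3r3 at least 3.09-fold, while the lipid phosphatase SHIP1, Inpp5d, was lower by a log2 difference of -2.32 ± 0.14.

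Developmental pathways held single large changes. In the combined WNT, NOTCH, TGF-beta and Hedgehog list 15 of 62 rose and 12 fell. Jag1, a NOTCH ligand, read 4.99, 4.86 and 5.08 in the immature samples and 9.19 and 8.80 in the CCR7+Il12b+ samples, at least 15.8-fold higher. Hes1, a target of NOTCH, fell 5.76-fold from 10.30, 9.80 and 10.02 to 7.57 and 7.46, and Notch4 2.48-fold. No overlap was seen for Jag1 or Hes1. The WNT receptor Fzd1 fell 3.96-fold and the cytokine Tgfb1 4.37-fold.

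Genes of glutathione and oxygen chemistry moved both ways, with 15 rises and 16 falls of 47. Rises came to 9 without immature replicate 1, 7 without CCR7+Il12b+ replicate 1 and 8 after median centring. Besides Gclc, sulfiredoxin, Srxn1, rose 2.97-fold and the stress-responsive factor Nfe2l1 3.42-fold. Gstp1, which couples glutathione to foreign compounds, read 9.65, 9.96 and 10.12 in the immature samples and 7.37 and 7.37 in the CCR7+Il12b+ samples, 5.80-fold lower. The mitochondrial thioredoxin Txn2 fell 3.90-fold, and Ncf4, a subunit of the phagocyte oxidase, 3.43-fold.

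Genes of lipid, purine and tryptophan mediators fell more often than they rose, as genes above the mark also did. Of 42 measured 16 fell (38.1%) and 8 rose (19.0%), with a median of -0.01. Among genes above the mark 27.4% fell and 19.5% rose. The rises came to 4 without immature replicate 2 or 3 or after median centring. Hpgd, which inactivates prostaglandins, fell 7.76-fold from 8.66, 8.12 and 8.54 to 5.36 and 5.60, and Ptgs2, the inducible cyclooxygenase that makes them, rose 2.05-fold. Kmo, an enzyme of tryptophan breakdown, fell 10.8-fold. Arg2, the mitochondrial arginase, rose at least 5.93-fold, from 4.48, 4.60 and 4.60 to 7.72 and 7.37. Its immature values lay below the mark and its matured values well above it.

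Transporters and channels changed at single genes. Solute carriers gave 14 rises and 12 falls of 37, with 7 falls without CCR7+Il12b+ replicate 2. Slc26a2, the sulfate transporter, rose 8.39-fold, from 5.52, 6.05 and 5.99 to 8.97 and 8.87, beside the rise of Papss2, which uses sulfate. Slco3a1, of the same family as Slco5a1, fell 6.93-fold and the glutamine transporter Slc1a5 4.19-fold. Of 41 enzymes of sulfation and glycosylation 12 rose and 12 fell, 7 without immature replicate 2. St8sia6, a sialyltransferase, rose 3.98-fold and Gcnt2, which branches sugar chains, fell 4.28-fold. Metal handling had 6 rises, 3 without CCR7+Il12b+ replicate 1, and 10 falls of 33. As shares of this list, 18.2% rose and 30.3% fell, near the 19.5% and 27.4% of genes above the mark. Metallothionein 2, Mt2, rose 3.99-fold and the transferrin receptor Tfrc fell 3.09-fold. The potassium channel Kcnk6 rose 6.52-fold, the calcium pump Atp2b1 5.15-fold, and the calcium channel Cacna1e fell 6.66-fold.

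Transcription factors of development rose and fell in like number, 16 (23.9%) and 19 (28.4%) of 67. Genes above the mark gave 19.5% and 27.4%. Foxp4 rose by 3.00 ± 0.12 on the log2 scale, from 6.76, 6.81 and 6.97 to 9.90 and 9.79, the ETS repressor Etv3 6.22-fold and Nfat5, the factor of osmotic stress, 5.91-fold. Bcl11a, a factor of dendritic and lymphoid development, read 9.27, 9.23 and 9.44 in the immature samples and 6.23 and 5.83 in the CCR7+Il12b+ samples, 9.75-fold lower. Hhex fell 6.01-fold and Nfatc2 3.87-fold. Enzymes that modify chromatin or DNA had 14 rises and 20 falls of 58. The deacetylase Sirt1 rose 4.42-fold and the histone demethylase Kdm2b 3.61-fold, and the arginine methyltransferases Prmt5 and Prmt1 fell 4.72-fold and 3.00-fold.

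Immediate-early genes, which rise when cells are handled, fell in 11 of 21 cases, Fos 3.48-fold and Egr2 3.80-fold, and rose in 6. Those rises came to 2 or 3 without any 1 immature array, without CCR7+Il12b- replicate 1 or without CCR7+Il12b+ replicate 1, and to 2 after median centring. Of 32 nuclear receptors 18 were not called, and of 16 clock genes 9, against 13555 of 19938 genes tested. Ahr, a ligand-activated factor on the nuclear receptor list, fell 2.82-fold, and Bhlhe40, which responds to the clock, rose 3.21-fold.

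Of 43 genes that promote or block cell death 16 rose and 9 fell, with promoting and protective genes in both directions. Fas, the death receptor, read 6.40, 6.01 and 6.30 in the immature samples and 10.53 and 10.44 in the CCR7+Il12b+ samples, 19.0-fold higher. Cflar, which blocks signals from that receptor, rose 8.79-fold and the stress protein Gadd45b 12.5-fold. Casp6, an executioner caspase, fell at least 6.80-fold. Bcl2l1, an inhibitor of cell death, rose 4.90-fold, the death-promoting Bcl2l11 rose 3.51-fold and Bcl2 itself fell 2.38-fold. These last 3 were named for their roles after their values were seen.

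In the immune lists, NF-kB signalling was the most uniform, with 18 of 19 members higher and 0 lower (median 1.62). Birc2, a ubiquitin ligase of the pathway, rose 10.7-fold, with a difference of 2.38 in another row against 3.42 here, and Relb, the subunit of its alternative branch, 8.87-fold, from 6.81, 6.73 and 6.84 to 10.15 and 9.74. The letters GGGNNTTTC, a form of the NF-kB site, were found on either strand in 6 of 16 windows of these genes (37.5%) against 4.80% of genes tested, and in 1 of 14 windows of the 20 largest rises (7.14%). The stretch before the start is printed for the inhibitor Nfkbia (chr12:55492648-55492797, minus strand), which rose 3.48-fold, and for the subunit Nfkb2 (chr19:46304587-46304736, plus strand), which rose 3.65-fold, both chosen because the letters occur there, with matches in capitals.
Nfkbia: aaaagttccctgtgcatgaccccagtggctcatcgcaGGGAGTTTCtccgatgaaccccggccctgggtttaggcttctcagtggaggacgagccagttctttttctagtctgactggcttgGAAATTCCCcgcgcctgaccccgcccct
Nfkb2: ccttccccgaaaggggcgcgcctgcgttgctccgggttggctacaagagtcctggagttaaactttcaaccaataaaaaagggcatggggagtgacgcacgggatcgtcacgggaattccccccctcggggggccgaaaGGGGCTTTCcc

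The remaining immune lists held movement both ways. Co-stimulatory and co-inhibitory genes numbered 13 rises and 4 falls of 17, with the receptor OX40, Tnfrsf4, 24.1-fold higher and TIM-3, Havcr2, 13.2-fold lower. The co-stimulatory ligand Cd86 was also among the falls, 1.95-fold lower. The rises of Cd80 and Cd83 were small, at 0.25 to 0.60 and 0.26 to 0.72 over the alternatives. Both calls were lost after median centring and without immature replicate 2 or 3. Cytokines and receptors had 11 rises and 6 falls of 24, and the receptor chains Il21r, Il15ra and Il7r rose 22.2-fold, 21.8-fold and 14.8-fold while Ifngr1 fell 9.17-fold. Chemokines and their receptors gave 6 and 8 of 16, Ccl5 rising 21.4-fold and Ccr9 falling at least 4.17-fold. Of 23 interferon-stimulated genes 10 rose and 6 fell, 3 without CCR7+Il12b+ replicate 2. Receptors for pathogens and uptake had 3 rises and 11 falls of 23, where Ly75, the DEC-205 receptor, rose 6.24-fold and Fcgr2b fell 6.10-fold. In antigen presentation 7 rose and 10 fell of 25, 6 without immature replicate 2 or 3. Nlrc5, the activator of class I genes, rose 8.13-fold and Ciita, the activator of class II genes, fell 5.93-fold. Genes of XCR1+ dendritic cell identity fell in 21 of 26 cases and rose in 3, a list that holds Cd8a and Itgax of the sort. Beside Naaa and Tlr3, Hepacam2 fell 15.1-fold and Gcsam 13.5-fold there.

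Some lists held few steady members. The 95% interval of the difference lay within 1.5-fold for 35.1% of genes above the mark, as given above. In the lists of co-stimulation, ribosome biogenesis and mitosis, all of whose members lay above the mark, it did so for 0 members. Every member of these lists was called, so that count follows largely from the calls. In NF-kB signalling the interval lay within 1.5-fold for 1 member, Ikbkg, the scaffold of the IKK kinase.

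Markers of other cells were read beside these lists. For B cells 1 of 12 markers rose, 3 without CCR7+Il12b+ replicate 1, and 4 fell, and their summed linear level was 634 to 739 in immature and 623 to 644 in CCR7+Il12b+ samples, with Cd79a and Ebf1 below the mark in both. T cell markers gave 0 rises and 3 falls of 11, 0 falls without CCR7+Il12b+ replicate 1 and 1 without immature replicate 2 or 3, with sums of 386 to 395 against 316 to 376 and Cd3d and Cd3g below the mark in both. Of 12 NK cell markers 2 fell, Klrd1 and Klrk1, and 0 rose, 2 without immature replicate 1, with sums of 748 to 830.3 against 277 to 287 and 8 markers below the mark in both, Ncr1 and Eomes among them. Plasmacytoid markers had 0 rises, 1 without immature replicate 1, and 4 falls of 7, with sums of 1050 to 1273 against 738 to 751. Of 13 neutrophil markers 9, Ly6g among them, were below the mark in both, and the sums were 258 to 308 against 308 to 325. Erythroid markers, 2 of 5 higher, summed to 146 to 149.8 against 187 to 189.

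Markers of other myeloid cells moved both ways. For CD11b+ dendritic cells 5 of 16 rose and 4 fell, 2 without CCR7+Il12b+ replicate 1 or immature replicate 2 or 3, and the sums were 1893 to 2520 against 4618 to 4829. The membrane proteins Tmem176a and Tmem176b rose 9.20-fold and 5.47-fold there, while Clec4a4, Clec10a and Mgl2 lay below the mark in both. For monocytes and macrophages 3 of 15 rose and 5 fell, with sums of 3627 to 3851 against 2784 to 3062. The falls included Lyz2, the myeloid lysozyme, 8.62-fold and Cd68. The rises were Vcam1, Spic and C1qa, the last at 0.32 ± 0.11 and lost under 14 of the 18 alternatives that gave a value, among them the fit without any 1 array other than CCR7+Il12b- replicate 3 and CCR7+Il12b+ replicate 1. Spic, a factor of red pulp macrophages, rose 8.37-fold, from 6.87, 6.92 and 7.52 to 10.42 and 9.93. The 5 members below the mark in both were Adgre1, Mertk, C1qc, Cd163 and Cd5l. The part of other cells in the rises of Vcam1, Spic and Tmem176a was not tested.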

How the data were processed

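RNA of sorted spleen cells was measured on 8 mouse expression arrays. The authors deposited log2 values, 1 per probe set and array, made by RMA in oligo per the submitters' processing notes, which name no version among the sources used here. Of 35556 rows, 21789 carry 1 symbol in the platform annotation, 1621 several and 12146 none. Rows with 1 symbol were used, and each of 19938 genes was represented by its row with the highest mean over 8 arrays (999 genes have more than 1 row). limma 3.58.1 in R 4.3.3 fitted 3 group means to all 8 arrays, with Benjamini-Hochberg adjustment over all genes and a call at an adjusted p under 0.05. Differences are CCR7+Il12b+ minus immature, with the standard error of the fit. Precision is limited by how many arrays there are.

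The background mark, 4.98, is the level below which 95% of 1194 genes for olfactory and vomeronasal receptors lay. Where 1 group's mean lay below it, the fold of a named gene is given as "at least", computed against the mark, and where both did no fold is given. Counts of genes by fold use the measured difference. The comparison, the gene lists, the gene families and the promoters shown were chosen with earlier results of these data known. Named genes are those of the sort, the 20 largest non-overlapping called rises and falls, the same outside the immune and marker lists, and in each list up to 4 called members per direction and its defining members. Predicted genes, receptor segments, olfactory receptors and RNA genes were passed over. Members of the gene families plotted and a few others, marked where they are not family members, were named after their values were seen. Promoter windows are from RefSeq, build GRCm38.p6, matched by symbol for 15614 of the genes tested. Alternatives changed the scaling, filter, row choice, arrays in the fit, prior, weights, replicate block and each array in turn, and the script was tested on simulated data. The result of 1 gene list is not reported here.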

Additional observations from a re-analysis of the deposited data

How the results depend on the processing

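Of the counts of genes called, 1 moved by more than 1.5 times under an alternative. Genes higher numbered 2816 as reported and 1798 after median centring. Leaving out each array in turn gave 2137 to 3076 higher genes and 2790 to 3668 lower genes, 812 to 1067 rises and 1532 to 1842 falls of at least 2-fold, and 1105 to 1273 called genes on the lists against 1263 as reported. Replicate numbers occur in every group. Across genes, deviations of same-numbered samples of different groups correlated at -0.17 to 0.22, and those of differently numbered samples at -0.22 to 0.19. Deviations from means of 2 or 3 samples are tied to each other. These correlations therefore cannot show whether the replicate numbers pair the samples. With the number as a fixed block, 2400 genes were higher and 3367 lower, 936 and 1668 of them at least 2-fold, and 1174 list genes were called. Of 466 genes named by the rule, 431 kept their call under every one of the 19 alternatives that gave a value for them, 35 lost it under at least 1 and 0 turned direction. The named genes were picked for large called changes in these same arrays, so most were bound to keep their call. The share of all called genes that kept theirs was not counted. With 2 CCR7+Il12b+ arrays the spread of that group rests on a single difference, and leaving out either array borrows the spread of the other groups. Values near the mark are limited by background signal. The cause of these movements was not tested.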
